A study of Homo sapiens with 10 samples.

Results

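The genes described here are 47 of the 19111 autosomal protein-coding genes: those whose symbol is TBX, PAX, LHX or NKX followed by a number, together with the sine oculis homeobox genes, with TBX5 and NKX2-5 left out. They comprise 11 T-box genes (TBX), 9 paired-box genes (PAX), 8 LIM-homeobox genes (LHX), 6 sine oculis homeobox genes (such as SIX3 and SIX6) and 13 NKX homeobox genes. The choice used the symbol and no measured value. The data came from hiPSCs, human pluripotent cells reprogrammed from somatic cells, of the established line PB010.5, into whose EEF2 locus a FUCCI cell cycle reporter had been inserted. Permeabilised, unfixed cells were incubated with 10 U, 6 U, 3 U, 1 U or 0.5 U of MNase, a nuclease that cuts accessible linker DNA and spares DNA wrapped on histones. The study's Results and Methods differ on the time of its hiPSC enzyme titration, and none is stated for the sequenced libraries. There was 1 library per concentration, read once with 150-bp and once with 50-bp paired ends, which makes 10 samples, and yeast mononucleosomal DNA was added to each as a spike-in. What was available for genes was a single list of 12921589 nucleosome positions called by the authors on pooled libraries, each an interval of 140 bp with a score. What the score measures and how it is scaled are not stated, and its median over the 12465711 autosomal positions was 14.8. The list carries no value per MNase concentration or per library, so there is no replicate error and no test between conditions, and how many reads stand behind a score is not known. The spread given beside each value is that between genes.

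T-box, paired-box, LIM-homeobox, sine oculis and NKX proteins bind DNA and set the identity of tissues in the embryo, among them the eye, forebrain, thyroid, kidney, pancreas, limb and heart. Most of their genes start in long CpG-rich stretches of DNA, and in pluripotent cells such promoters are typically held by Polycomb complexes, with repressive H3K27me3 and activating H3K4me3 on the same nucleosomes, a state called bivalent. At CpG-rich promoters in active use, a nucleosome-depleted region usually lies just upstream of the transcription start site (TSS) and a well-positioned nucleosome lies just downstream of it. Neither transcription nor histone marks were measured in the list used here, so no gene below is called active or silent from it.

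These promoters were rich in CpG. Within 1500 bp on either side of the TSS, the 47 genes held a median of 174 CpG dinucleotides and 58.9% GC, against 116 and 53.0% over all autosomal protein-coding genes. In the central 1000 bp the difference was smaller, with a median GC of 63.2% against 61.5%. Because MNase cuts AT-rich DNA more readily and the score varies with base composition, each gene was set against the 500 other protein-coding genes nearest to it in GC over those central 1000 bp, called its GC neighbours here. Its value is given as a percentile among them, so that a gene at their middle has a percentile of 50. Transcripts were short, with a median length of 8.88 kb against 23.2 kb over all genes, and 5 sets of the genes lay within 100 kb of one another and so shared DNA around them, among them NKX2-1 with NKX2-8 and PAX9, SIX3 with SIX2, and TBX2 with TBX4. Of the 47 genes, 14 (29.8%) had the start of a gene on the other strand within 1500 bp, near the 29.6% of all genes.

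The DNA under a few high and low positions upstream of these genes is shown first, 5′ to 3′ on the strand of the gene, with each CpG in capitals. The intervals below hold the highest-scoring upstream position of LHX1 and of TBX10, which had the highest promoter means of their families, and a lowest-scoring upstream position of NKX6-2 and NKX6-1, which had the lowest means among the NKX genes. Coordinates are GRCh38, and each interval lies upstream of the canonical start.
LHX1, chr17:36936802-36936941, plus strand, midpoint -603 bp, score 54.3: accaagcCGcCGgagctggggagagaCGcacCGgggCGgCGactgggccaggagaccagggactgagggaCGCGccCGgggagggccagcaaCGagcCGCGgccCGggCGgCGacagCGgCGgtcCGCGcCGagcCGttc
TBX10, chr11:67639922-67640061, minus strand, midpoint -229 bp, score 34.5: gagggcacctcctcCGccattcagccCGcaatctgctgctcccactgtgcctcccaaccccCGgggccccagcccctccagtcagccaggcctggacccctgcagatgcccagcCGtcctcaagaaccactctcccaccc
NKX6-2, chr10:132786322-132786461, minus strand, midpoint -245 bp, score 7.40: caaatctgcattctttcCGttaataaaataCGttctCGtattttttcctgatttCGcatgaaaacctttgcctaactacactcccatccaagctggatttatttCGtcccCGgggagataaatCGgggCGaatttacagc
NKX6-1, chr4:84499562-84499701, minus strand, midpoint -340 bp, score 7.40: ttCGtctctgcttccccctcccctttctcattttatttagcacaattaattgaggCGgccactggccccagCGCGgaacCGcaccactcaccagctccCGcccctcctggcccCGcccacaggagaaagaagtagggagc
The LHX1 interval held 21 CpG at 78.6% GC and the TBX10 interval 4 CpG at 69.3% GC. The NKX6-2 interval held 8 CpG at 41.4% GC and the NKX6-1 interval 7 CpG at 60.0% GC. A second upstream position of NKX6-2, at -405 bp, had the same score of 7.40 at 78.6% GC, so equally low scores lay on AT-rich and GC-rich DNA. Downstream of their starts TBX10 had a higher position, 51.8 at 1251 bp, and NKX6-2 a lower one, 6.17 at 505 bp.

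The mean score of a promoter, taken over all positions whose midpoint lay within 1500 bp of the canonical TSS, was near that of genes of the same GC. The 47 promoters held 771 positions with a median score of 18.5. The median promoter mean was 19.1, from 16.3 at NKX6-2 to 26.9 at LHX1, with quartiles of 18.2 and 21.0, against 19.5 for the GC neighbours. The median percentile was 51.9, and 25 of the 47 genes lay above the middle of their neighbours. Above percentile 90 there were 2 of the 47, LHX1 and TBX10, where 10.0% of all genes lay, and below percentile 10 there was 1, NKX6-2, where likewise 10.0% of all genes lay. Family medians of the percentile ran from 47.6 for TBX and 49.2 for the sine oculis genes through 51.9 for NKX and 53.3 for PAX to 58.1 for LHX, so the families overlapped broadly. When neighbours were taken by GC over the whole 1500 bp on either side, the median percentile dropped to 32.7 and 18 of the 47 genes lay above the middle.

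**Figure D1:**
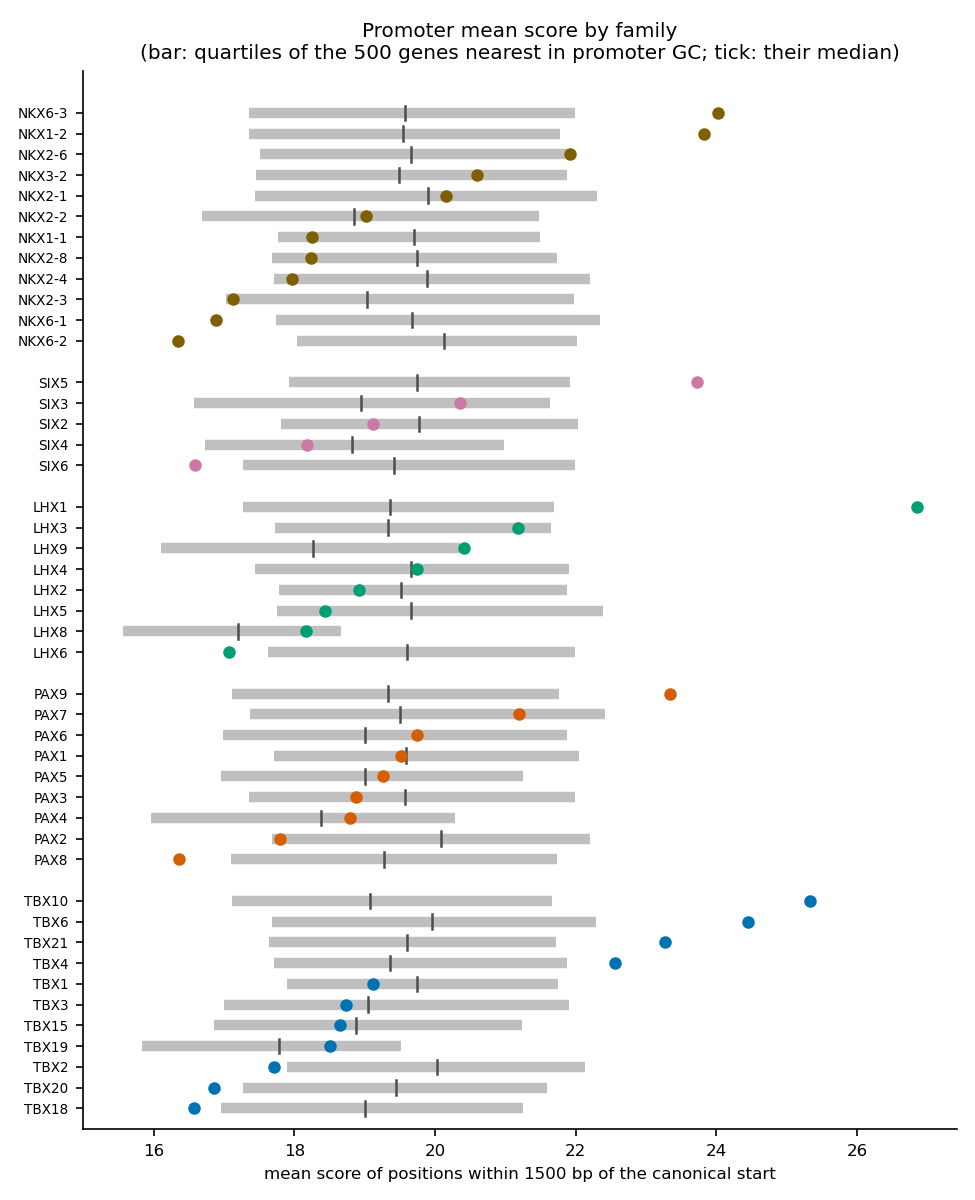
Mean score of all positions within 1500 bp of the canonical start (x axis, in the authors' units) for 45 of the 47 genes (points), ordered within their families. Grey bars span the quartiles of the 500 genes nearest in promoter GC and the dark tick is their median; LHX1 at 26.9 and TBX10 at 25.3 lie farthest to the right, and NKX6-2 at 16.3 farthest to the left.

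Positions were somewhat more numerous at these promoters than at their neighbours. A promoter held a median of 17 midpoints within 1500 bp of the TSS, from 12 at PAX9 to 20 at SIX6, against 16 for the GC neighbours. The median percentile was 75.5 and 32 of the 47 genes lay above the middle. With neighbours by GC over 1500 bp on either side it was 66.2. Counts are small whole numbers with many ties, so 1 midpoint moves a percentile far. TBX6 with 16 midpoints was at percentile 53.8, and PAX6 with 17 at 76.1. Above percentile 90 were 7 of the 47 (14.9%), with 8.46% of all genes there: LHX8, NKX1-1, NKX2-8, PAX2, PAX8, SIX3 and SIX6. The difference lay away from the TSS, since within 500 bp of it the median percentile of the count was 48.6.

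Against neighbours by central GC, the shape of the profile differed more than its mean did. At genes of the same GC the score was higher within 500 bp of the TSS (the centre) than from 501 to 1500 bp (the flanks). At the 47 genes the medians of centre and flanks were nearly equal. Neither the curve nor the single genes were flat, however. Mean scores of 100-bp bins ran from 15.0 to 23.4, and the centre minus flank of single genes from -14.8 to 9.15. Within 500 bp of the TSS the median of the mean scores was 19.3, against 22.0 at the GC neighbours, a median percentile of 33.5 with 16 of 47 genes above the middle. From 501 to 1500 bp it was 19.2 against 18.0, a median percentile of 63.9 with 35 of 47 above the middle. The centre minus the flank of the same promoter therefore had a median of 0.12 at the 47 genes and 3.62 at their neighbours, and its median percentile was 28.9. Only 12 of the 47 genes exceeded the middle of their neighbours in this difference, and none of the 9 PAX genes did. With neighbours by GC over 1500 bp on either side, the median percentile of the difference was 38.8. That of the promoter mean score was then 32.7, so the shape no longer differed more than the mean. The difference was negative, with the centre scoring below the flanks, at 21 of the 47 genes (44.7%) and at 28.9% of all genes. Below percentile 10 of the neighbours were 9 of the 47 (19.1%), where 10.2% of all genes lay: LHX1, LHX9, NKX1-2, NKX2-8, NKX6-2, SIX2, SIX5, TBX1 and TBX3. The centre minus flank difference was chosen as a measure after the profile had been seen. GC beyond the central 1000 bp was not matched. From 501 to 1500 bp its median was 58.8% at the 47 genes and 49.8% over all genes. Once the mean score of autosomal positions of equal GC was subtracted, the flanks were low as well. The median percentile was then 35.7 within 500 bp and 32.0 from 501 to 1500 bp.

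**Figure D2:**
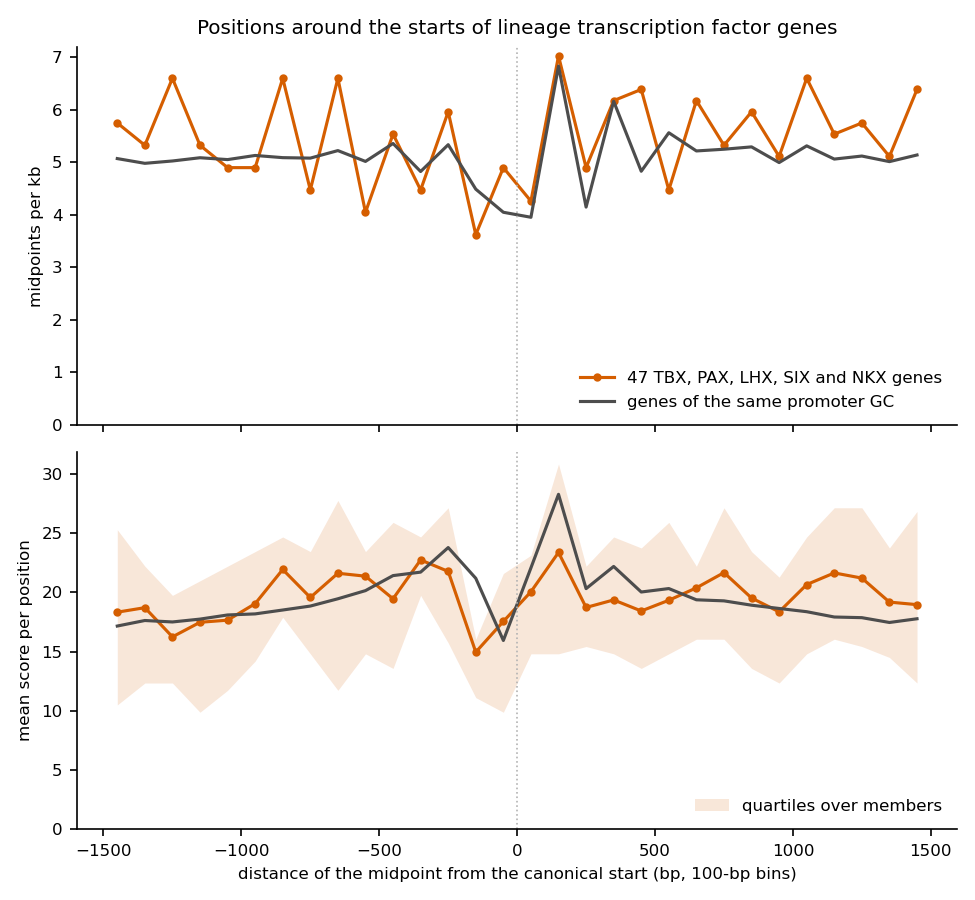
Midpoints per kb (upper panel) and mean score per position (lower panel) in 100-bp bins around the canonical start, for the 47 genes (orange, with the quartiles over the genes shaded) and the average over their GC neighbours (grey). The grey score curve climbs to 28.3 at 100 to 200 bp downstream, where the orange curve reaches 23.4, and at 200 to 100 bp upstream the orange curve dips to 15.0 against 21.2.

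The largest gaps between the score curves lay on either side of the TSS. In the bin from 100 to 200 bp downstream, where the first nucleosome of a transcribed gene usually sits, 33 positions of the 47 genes had a mean score of 23.4, and the neighbours had 28.3. The count there did not differ to the same degree, with 7.02 midpoints per kb at the 47 genes and 6.83 at the neighbours. In the bin from 200 to 100 bp upstream, 17 positions had a mean score of 15.0 against 21.2, whereas in the last 100 bp before the start 23 positions had 17.5 against 15.9. Over the whole 200 bp upstream, 40 positions gave 4.26 midpoints per kb, the same density as the 4.26 of the neighbours, at a mean score of 16.4 against 18.7. In the first 50 bp downstream the 47 genes had 13 positions, or 5.53 midpoints per kb, where the neighbours had 3.30, and their mean score was 20.7 against 18.0. These bins hold few positions, and their values carry no error beyond the quartiles drawn in the plot.

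The first position downstream of the TSS lay as far from it as at the neighbours and had a lower score. Its midpoint was at a median of 112 bp, from 0 bp at SIX5 and NKX6-1 to 276 bp at PAX5, against 113 bp at the neighbours. Its score had a median of 21.0, from 8.64 at TBX1 to 40.7 at LHX3, against 24.7 at the neighbours. The median percentile of that score was 31.6, with 19 of the 47 genes above the middle. Below percentile 10 there was 1 of the 47, TBX1, with 10.1% of all genes. With neighbours by GC over 1500 bp on either side the median percentile was 40.5, and with neighbours by CpG count 40.2. With the 5′-most annotated start in place of the canonical one, which changes the start of 15 of the 47 genes, the median percentile was 48.5.

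The stretch across the TSS without a midpoint was about as wide as at genes of the same GC. The distance from the nearest upstream to the nearest downstream midpoint had a median of 210 bp, from 100 bp at NKX2-2 to 430 bp at TBX18, with quartiles of 170 and 260 bp, against 230 bp at the neighbours. The median percentile was 41.4, and 18 of the 47 genes lay above the middle. These distances were multiples of 10 bp at 44 of the 47 genes, which sets the precision of each. The smallest distance over all genes was likewise 100 bp, and intervals of 140 bp whose midpoints lie that close overlap. Above percentile 90 were 3 of the 47, among them NKX1-2 and TBX1, with 10.1% of all genes, and below percentile 10 were 5 (NKX2-2, NKX6-3, PAX1, SIX6 and TBX15), or 10.6%, with 10.0% of all genes. In 11 of the 47 genes (23.4%) no midpoint lay in the 200 bp upstream, where this held for 25.8% of all genes. Among them were LHX2, LHX8, NKX1-2, NKX2-3, PAX6, PAX9, SIX3, SIX4, SIX5 and TBX18.

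The 200 bp upstream of the TSS are shown for TBX18 and NKX1-2, which had the widest stretch, and for NKX2-2 and TBX15, which had the narrowest, 5′ to 3′ on the strand of the gene and ending at the base before the start, with each CpG in capitals. All are GRCh38, minus strand.
NKX1-2, chr10:124450036-124450235, stretch 420 bp: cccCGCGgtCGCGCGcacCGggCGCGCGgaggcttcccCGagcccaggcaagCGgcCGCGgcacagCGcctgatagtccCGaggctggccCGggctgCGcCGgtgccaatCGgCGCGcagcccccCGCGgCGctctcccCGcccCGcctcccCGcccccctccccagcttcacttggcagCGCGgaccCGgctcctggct
TBX18, chr6:84764599-84764798, stretch 430 bp: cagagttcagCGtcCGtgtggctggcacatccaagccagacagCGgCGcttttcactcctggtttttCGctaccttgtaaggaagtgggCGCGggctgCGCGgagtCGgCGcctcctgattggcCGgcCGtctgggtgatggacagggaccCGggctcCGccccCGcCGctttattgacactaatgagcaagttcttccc
NKX2-2, chr20:21514065-21514264, stretch 100 bp: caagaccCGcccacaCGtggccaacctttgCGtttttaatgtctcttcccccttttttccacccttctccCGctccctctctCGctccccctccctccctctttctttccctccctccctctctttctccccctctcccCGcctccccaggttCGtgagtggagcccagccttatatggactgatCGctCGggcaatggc
TBX15, chr1:118988344-118988543, stretch 125 bp: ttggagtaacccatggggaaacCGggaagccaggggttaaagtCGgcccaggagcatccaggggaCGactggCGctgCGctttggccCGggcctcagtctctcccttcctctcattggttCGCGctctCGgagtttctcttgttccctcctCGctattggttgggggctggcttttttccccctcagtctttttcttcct
The sequences without a midpoint held 30 CpG at 80.5% GC (NKX1-2) and 17 CpG at 62.5% GC (TBX18). The other two held 9 CpG at 60.0% GC (NKX2-2) and 10 CpG at 58.5% GC (TBX15). The genes were picked for this distance, so the difference in CpG between them is a description of these sequences alone.

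Set against the local base composition of each position, the scores at these promoters were low. For each position, the mean score of all autosomal positions of the same GC in the 140-bp interval was subtracted, and the remainder was averaged over a promoter. Its median was -1.36 at the 47 genes and 0.13 at their neighbours, with 34 of the 47 (72.3%) below 0 against 48.2% of all genes. The median percentile was 25.8. Below percentile 10 were 10 of the 47 (21.3%), with 10.1% of all genes: LHX5, NKX2-3, NKX2-8, NKX6-1, NKX6-2, PAX2, PAX8, SIX2, SIX6 and TBX18. Above percentile 90 there was 1, LHX1, with 10.1% of all genes. The PAX genes were the most uniform, with 8 of 9 below 0, and the TBX genes the least, with 6 of 11. The median percentile remained under 50 when neighbours were taken by GC over 1500 bp on either side, at 29.8, or by CpG count, at 34.3.

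The difference was widest at positions of 65 to 75% GC. Where the interval had 65 to 70% GC, 113 member positions had a mean score of 21.9 against 24.0 over all autosomal positions, and at 70 to 75% GC 86 positions had 20.4 against 22.6. At 45 to 50% GC the 76 member positions had 18.1 against 17.8, and at 75 to 80% GC the 57 positions had 20.6 against 20.6. Across the 47 genes, the promoter remainder and the CpG count had a Spearman correlation of -0.39, where it was -0.15 over all genes, and promoter GC and promoter mean score had 0.10 where it was 0.35. These correlations are across genes of 1 pooled list and share its depth and its base composition. The 47 genes, with promoter GC from 47.1 to 77.3%, were not matched to all genes in range. A narrower range can lower a correlation, so these values do not show a weaker dependence on GC, which was not tested.

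With distance from the TSS the remainder of the 47 genes grew from negative to positive. The median remainder of the 47 genes was -1.36 within 500 bp and -1.73 from 501 to 1500 bp. It was -0.38 from 1501 to 5000 bp, 0.18 from 5001 to 10000 bp, 0.68 from 10001 to 20000 bp and 0.77 from 20001 to 50000 bp. Over all genes it was 0.50 within 500 bp, -0.33 from 501 to 1500 bp, and then 0.10, 0.27, 0.28 and 0.31 in the same rings. The 47 genes were therefore still below all genes from 5001 to 10000 bp, at a median percentile of 44.9 of their neighbours, and above them from 10001 to 20000 bp and beyond, at 61.2 and 69.5. The score itself stayed above that of the neighbours well outside the promoter, with a median percentile of 72.2 from 1501 to 5000 bp and 66.0 from 5001 to 10000 bp, and reached 47.6 in the farthest ring. GC was also higher there, at a median of 53.9% from 1501 to 5000 bp against 45.9% over all genes, and the part of GC in the score was taken out in the remainder only.

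**Figure D3:**
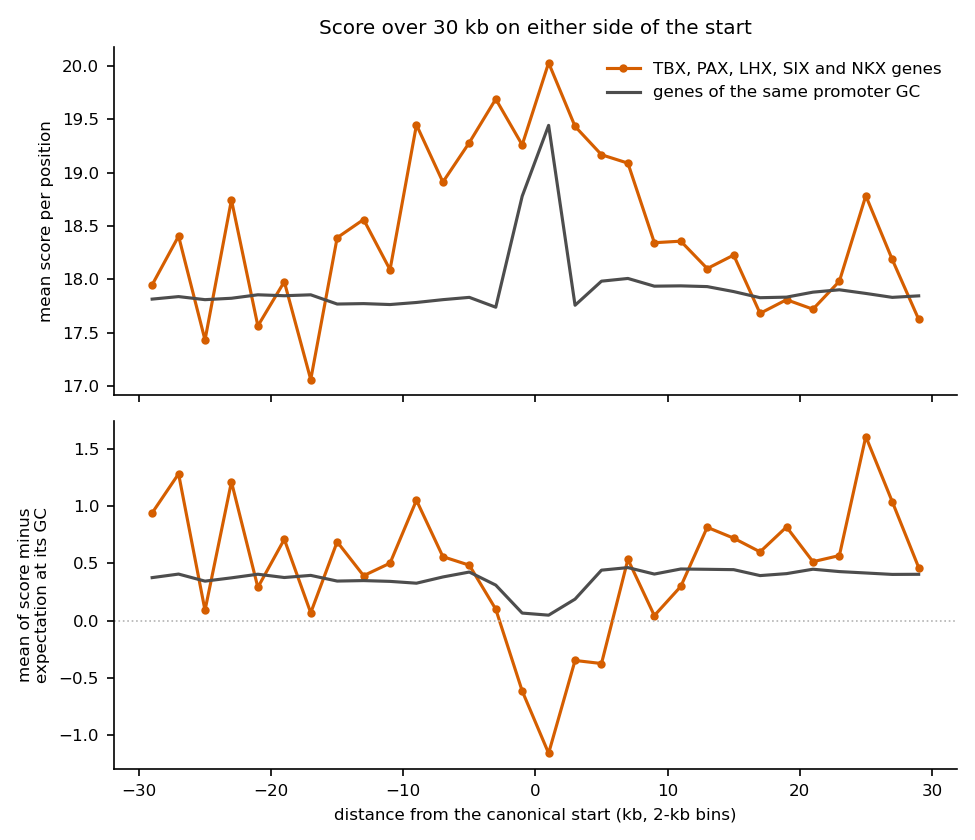
Mean score (upper panel) and mean of the score minus that of autosomal positions of equal GC (lower panel) in 2-kb bins over 30 kb on either side of the start, for the 47 genes (orange) and their GC neighbours (grey). The grey score curve is a narrow peak of 19.4 in the first 2 kb downstream, whereas the orange one is broad around 20.0, and the lower orange curve dips to -1.16 in the same bin.

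Among the T-box genes the promoter means spread widely. TBX10 had the highest, 25.3 over 17 positions, where its neighbours had quartiles of 17.1 and 21.7, and its percentile was 93.8. TBX6, which specifies paraxial mesoderm and so the somites, had 24.4 over 16 positions, percentile 89.0, with a centre of 29.6 above flanks of 22.1. The centre minus flank difference of TBX6, 7.52, was the largest of its family. TBX18, a gene of the epicardium and the sinoatrial node, had the lowest mean, 16.6 over 14 positions, with a remainder of -4.08 and midpoints at -344 bp and 86 bp around its start. TBX20, a cardiac T-box gene, had 16.9 over 15 positions, percentile 19.7. TBX3, a gene of limb and mammary development, had 18.7, percentile 47.1, with a centre of 17.8 and flanks of 19.2. TBX15, a gene of skeletal and adipose tissue, had its flanking midpoints at -54 bp and 71 bp with scores of 9.87 and 14.8, and the upstream one reached 17 bp into the transcript. TBX1, a gene of the pharyngeal arches, was outside the rule for named genes and is given because its values were extreme: its centre mean was 8.02 and its flanks 22.8, the most negative difference of the 47 at -14.8.

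Among the paired-box genes none exceeded the middle of its neighbours in the centre minus flank difference. PAX6, which directs eye development, had a promoter mean of 19.7, percentile 58.0, over 17 positions, with its flanking midpoints at -240 bp and 20 bp at scores of 23.4 and 28.4. Its centre mean was 22.7 and its flanks 18.5, a difference of 4.19 at percentile 40.7. PAX9, a gene of the palate, teeth and thymus, had the highest mean of the family, 23.3 at percentile 84.7, on the fewest positions, 12. PAX8, which specifies thyroid and kidney, had the lowest, 16.4 at percentile 16.9, on 19 positions, with a remainder of -4.08. Count and score were therefore opposite at the extremes of this family, and over the 47 genes they had a Spearman correlation of -0.26 where all genes had 0.18.

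Among the LIM-homeobox genes LHX1 lay far above the rest. LHX1, which acts in the head organiser and the kidney, had a promoter mean of 26.9 over 17 positions, percentile 97.8, the highest of the 47, and a remainder of 4.35. Its highest scores lay upstream, at 42.0, 43.2 and 54.3 for midpoints at -1103, -903 and -603 bp, and the next highest, 37.0, lay downstream at 1077 bp. The position just upstream of the start at -83 bp had 17.3, and the first one downstream at 127 bp had 14.8. The centre minus flank difference of LHX1 was therefore -6.54, at percentile 2.24 of its neighbours. A gene on the other strand starts within 1500 bp of the LHX1 start, as at 14 of the 47 genes in all, SIX5 among them. LHX2, a gene of the forebrain, eye and hair follicle, had a mean of 18.9, percentile 41.2, and no midpoint between -236 bp and 44 bp. LHX8, a gene of cholinergic neurons and oocytes with the lowest promoter GC of the 47, 47.1%, had a mean of 18.2 at percentile 65.5. LHX6, a gene of cortical interneurons, had the lowest mean of the family, 17.1 at percentile 18.3.

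Among the sine oculis genes SIX5 had the highest mean, 23.7 over 18 positions at percentile 88.1, and the highest single score in any of the 47 promoters, 55.5 at -540 bp. Within the same promoter SIX5 also held scores of 7.40 at -370 bp and 9.87 at -210 bp, so high and low positions alternated, and its centre minus flank difference was -4.11. SIX3, a gene of the forebrain and eye, had 20.4 at percentile 64.0, with a first downstream position of 34.5 at 30 bp. SIX6, also a gene of the eye and pituitary, had the lowest mean of the family, 16.6, on the most positions of the 47, 20, at percentile 99.0 of the count.

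Among the NKX genes 9 of 13 had a centre below the flanks. NKX6-2, a gene of oligodendrocytes, had the lowest promoter mean of the 47, 16.3 over 16 positions at percentile 8.60. Its centre mean was 9.38 and its flanks 19.5, and the positions nearest the start on both sides, at -125 bp and 225 bp, scored 9.87 each. NKX6-3, a gene of the stomach, had the highest mean of the family, 24.0 at percentile 88.5, with level scores of 23.4 and 24.3 in centre and flanks. NKX1-2 had 23.8 at percentile 89.4, with a centre minus flank difference of -7.92 and no midpoint between -297 bp and 123 bp. NKX2-1, which specifies thyroid and lung, had 20.2 at percentile 53.0, with a first downstream position of 29.6 at 180 bp. NKX2-2, a gene of the ventral spinal cord and the pancreas, had 19.0 at percentile 51.9, and a position with its midpoint at -8 bp scored 29.6, next to one of 9.87 at 92 bp. NKX3-2, a gene of cartilage, had 20.6 at percentile 61.7 on 13 positions, the fewest of the family.

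**Figure D4:**
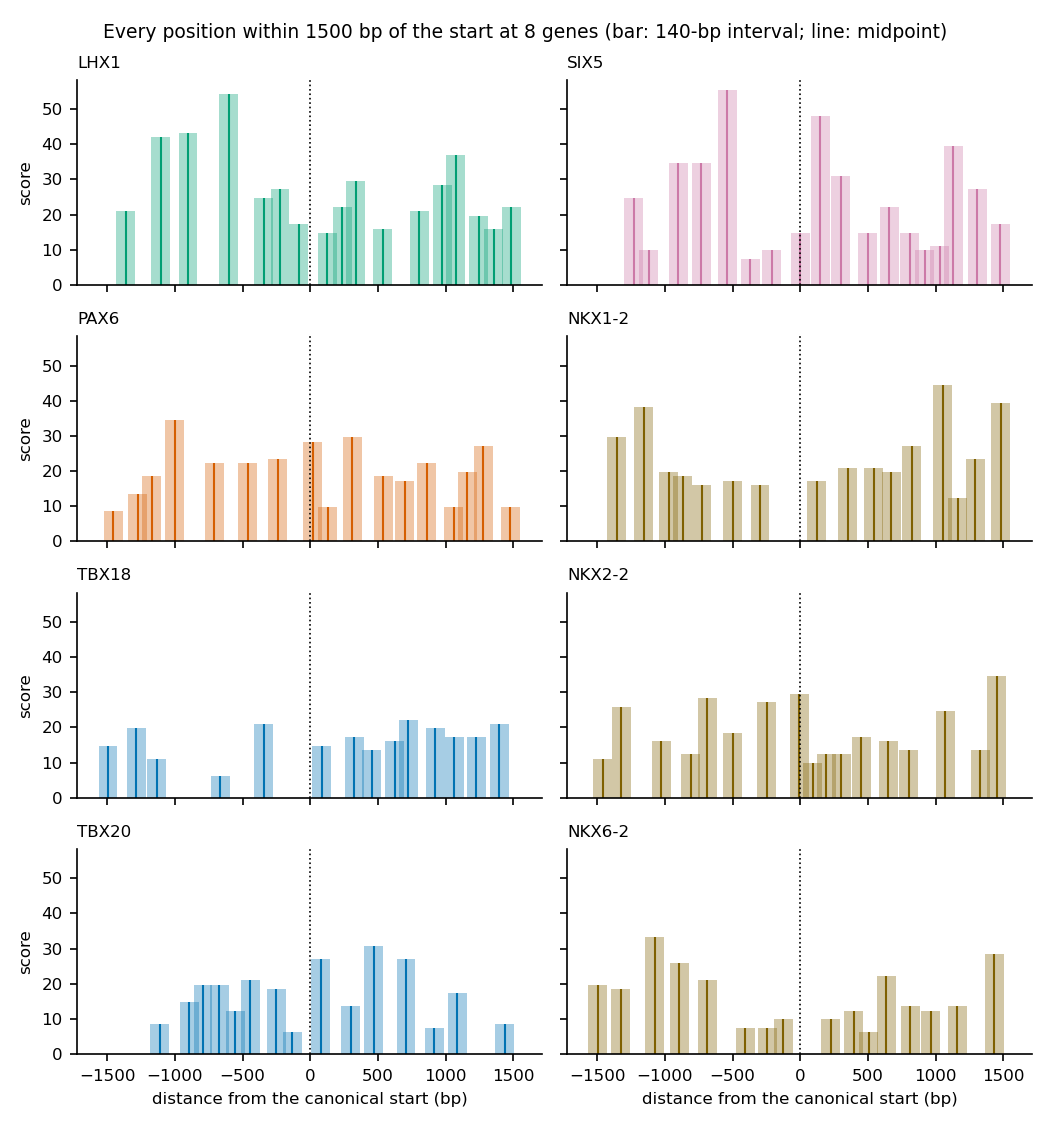
Every position within 1500 bp of the canonical start (x axis, bp) at LHX1, SIX5, PAX6, NKX1-2, TBX18, NKX2-2, TBX20 and NKX6-2, with its score on the y axis. Bars are the 140-bp intervals and lines their midpoints. The highest bars, 54.3 at LHX1 and 55.5 at SIX5, lie more than 500 bp upstream, and NKX1-2 and TBX18 show a wide stretch without a midpoint across the start.

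Over the gene bodies, positions were dense in comparison with genes of the same promoter GC. From the start to the end of the canonical transcript, the 47 genes had a median of 5.53 midpoints per kb, from 2.54 at TBX20 to 6.51 at NKX2-8, against 5.25 at the neighbours. The median percentile was 72, and 35 of the 47 genes lay above the middle. Above percentile 90 were 13 of the 47 (27.7%), with 10.1% of all genes. Among them were LHX1, LHX4, LHX5, LHX6, NKX1-1, NKX2-3, NKX2-4, NKX2-6, NKX2-8, SIX5, SIX6 and TBX2. Neighbours were not matched for length, and most of these 13 transcripts were short, down to 2.16 kb with 14 positions at NKX2-4. Much of such a transcript lies within the promoter window of 1500 bp. With the first 1500 bp left out, the median percentile over the genes that remained was 68.6. The transcripts of the 47 genes were also GC-rich, with a median of 53.2% GC against 45.4% over all genes. Among the 500 genes nearest in transcript GC instead, the median percentile was 53.8 and 25 of the 47 genes lay above the middle.

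The mean score over the transcript also depended on which GC was used, and its median percentile passed to the other side of the middle. Its median was 19.8 at the 47 genes and 17.4 at the neighbours by promoter GC, a median percentile of 68.7 with 34 of 47 above the middle. Above percentile 90 were 7 of the 47 (14.9%), with 10.1% of all genes: LHX3, NKX3-2, NKX6-3, SIX3, SIX5, TBX1 and TBX10. Among genes of the same transcript GC, the median percentile was 37.1 with 20 of 47 above the middle. SIX3 at 23.6, NKX3-2 at 23.8 and SIX5 at 24.2 had the highest percentiles by promoter GC, 96.9, 96.6 and 96.4, and remained at 82.6, 75.6 and 75 by transcript GC. TBX20 at 13.3, LHX8 at 14.0 and TBX18 at 14.0 had the lowest, 2.81, 14.9 and 15.2, and were at 13.7, 28.1 and 37.1 by transcript GC. Across the 47 genes, transcript GC and transcript mean score had a Spearman correlation of 0.58, where it was 0.85 over all genes, again without matching the range of GC.

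TBX20 had by far the fewest positions per kb. Its transcript of 51.7 kb held 131 positions, or 2.54 per kb, at percentile 1.40 of its neighbours by promoter GC and 2.80 by transcript GC, and the next lowest of the 47, TBX18, had 4.39. The low count did not end with the gene. In windows of 10 kb, the 200 kb upstream of the TBX20 start held 37 to 58 positions per window, with a median of 49, and the first 10 kb of the transcript held 42. From 10 to 190 kb downstream, past the end of the transcript, 18 windows held 16 to 32 positions with a median of 23, and none of them reached the lowest upstream window. The limits of 10 and 190 kb were not among the planned measures and lie where the counts change, so the lack of overlap follows in part from them. From 190 to 400 kb the windows held 24 to 53, with a median of 38, so some there were as low. The median GC of the windows was 41.5% upstream, 36.0% from 10 to 190 kb and 39.0% beyond. The median of the window mean scores was 15.3, 12.0 and 12.5, so by these medians count and score were lowest where GC was lowest. Single windows did not follow that order in their counts. The upstream window lowest in GC, at 35.9%, held 43 positions. The window highest in GC from 10 to 190 kb, at 41.5%, held 32. The part of GC in the count was not tested. Counted over 50 kb on each side, TBX20 had 244 positions upstream and 127 downstream, a ratio of 0.52 that was the lowest of the 47, and the highest was 2.44 at NKX1-1, with 106 and 259.

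**Figure D5:**
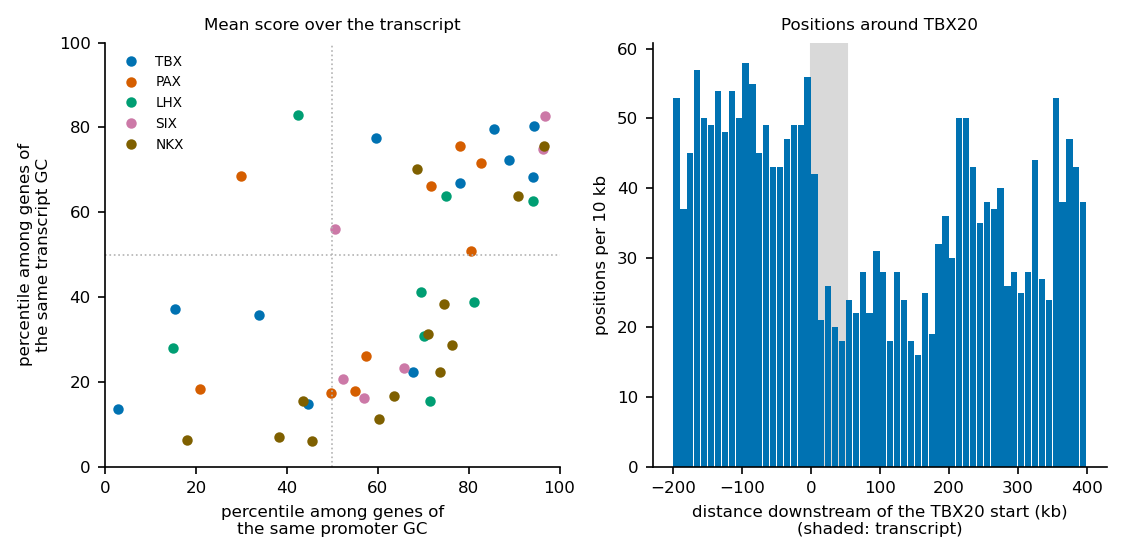
Left, percentile of the mean score over the transcript among genes of the same promoter GC (x axis) and of the same transcript GC (y axis) for each of the 47 genes, coloured by family; 20 of the 47 lie above 50 on the y axis against 34 on the x axis. Right, positions per 10-kb window around the TBX20 start, with the transcript shaded; windows from 10 to 190 kb downstream hold 16 to 32 positions and those upstream 37 to 58.

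A further pair of lists of developmental transcription factors were measured in the same way. The 39 genes of the HOX clusters, which pattern the body axis, had a median promoter score percentile of 63.6 and a median remainder of -0.41. Their median centre minus flank percentile was 19.5, so their centre too was low relative to their flanks. The 49 forkhead genes, a family that includes both developmental and broadly used members, had 51.3, 39.3 and -0.38. The median percentile of the position count was 76.2 for the HOX genes and 38.8 for the forkhead genes, against 75.5 for the 47. That of the first downstream score was 32.4 and 27.4, against 31.6 for the 47, so a low value there was shared by all these lists. HOX genes lie next to one another in clusters, and the differences between the sets were not tested.

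Genes of the same protein families under other symbols were kept apart, since the rule used the symbol. Over these 8 genes the median centre minus flank percentile was 23.8 and that of the remainder 34.8. TBXT, the brachyury gene of the primitive streak, had a promoter mean of 20.5 with a remainder of -2.50, and EOMES, a T-box gene of mesendoderm, had 21.4 with a centre minus flank difference of -3.29. ISL1, a LIM-homeobox gene of motor neurons and heart progenitors, had the widest stretch of the 8, 445 bp at percentile 95.0. MGA, a T-box gene used in most cell types, had a remainder of 4.04 at percentile 91.5 and a centre minus flank difference of 11.0. TBR1, LMX1A, LMX1B and ISL2 had promoter means of 20.5, 19.7, 18.9 and 17.3.

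Sequence motifs in the promoters, read from 250 bp before to 50 bp after the canonical start on both strands, were sparse. The ETS core CGGAAG, frequent at CpG-rich promoters of broadly used genes, was found in 6 of the 47 promoters (12.8%): LHX6, NKX2-6, NKX2-8, PAX4, PAX9 and TBX2. It was found in 25.6% of all promoters of that length and in 28.7% of those of the GC neighbours. The TATA box letters TATAAA were found in 4 of the 47 (8.51%), LHX5, LHX8, PAX5 and TBX3, against 9.74% of all and 6.02% of the GC neighbours. The homeodomain core TAATTA was found in 1 of the 47, TBX19 (2.13%), against 3.1% of all and 1.57% of the GC neighbours. The T-box letters TCACACCT, in 0.99% of all promoters, and the GATA core GATAAG, in 4.79%, were found in none of the 47. None of these motifs contains another, and a match says only that the letters stand there.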

How the data were processed

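MNase-digested DNA of PB010.5 hiPSCs was sequenced by the authors, trimmed with Trimmomatic 0.40, aligned to GRCh38 and passed through the nucMACC workflow with blacklisted regions removed. The deposited list holds a signal per position, a height set by the authors whose scaling is not stated; which runs were pooled and which program called the positions are not given in the sources used here, although the study's methods say that profiling did not complete on the 50-bp runs and that work went on without them. Positions were used without a filter on score. Distances run from the canonical start of GENCODE release 44 (the study's methods name another release) to the interval's midpoint. Each gene was ranked among the 500 genes outside the list nearest in GC over 1000 bp, with ties counted evenly, and score remainders used GC bins of 1 percentage point. Named genes were the highest and lowest promoter mean per family, the 3 widest and 3 narrowest distances across the start, the 3 highest and 3 lowest transcript score percentiles, and PAX6, LHX2, NKX2-1, TBX3, TBX6 and SIX5. Values of 2 genes are not reported here singly, although they enter the counts and medians. Members, lists and alternatives were chosen with earlier results of these data known. With 1 pooled list no test was made; the study's methods give read totals for its libraries, but the list holds none, so no counting interval of a score can be given. Software was pandas 2.3.3, matplotlib 3.10.9, SciPy 1.17.1 and NumPy 2.4.6 under Python 3.11.15, and the calculations were tested on simulated data.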

Additional observations from a re-analysis of the deposited data

How the results depend on the processing

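Over 10 results, 101 alternative values were computed, and 90 moved by less than the SD of the 5 family medians or, for the count of genes with no upstream midpoint, by less than 1.5 times. Of these 90, the promoter mean score alone passed under the middle, at 48.7 with 200 neighbours and 48.7 with neighbours by CpG count. The alternatives varied the start site, the positions used, the neighbours, the window and the genes or families kept. Those that left out a family, or kept 1 gene where some lay close together, all counted among the 90. They shared most genes with the main value, so a small move was likely from the outset. The SD was also wide. With neighbours by GC within 1500 bp, the centre minus flank percentile went from 28.9 to 38.8, a move below the SD of 11.9. The downstream score percentile went from 31.6 to 40.5, below the SD of 9.78. The 90 are therefore no measure of robustness. With the 5′-most start, the first downstream score had a median percentile of 48.5 and 7 genes had no midpoint in the 200 bp upstream (23% of all genes). When positions under the median score were dropped, the promoter mean score had a percentile of 45.4, the distance across the start 59.0, and 28 genes had no upstream midpoint (53.3% of all genes); fewer positions enter by construction. With neighbours by GC within 1500 bp, the promoter mean score had 32.7 and the transcript mean score 48.1, now under the middle. With neighbours by transcript GC, the transcript density had 53.8 and the transcript mean score 37.1, also under the middle. With 500 bp on either side, the promoter mean score had 33.5 and the position count 48.6, also under the middle. Apart from the narrower sets of positions, the cause was not tested. The downstream score, the centre minus flank difference and their alternatives were chosen after seeing the data. No paired analysis was possible because libraries were pooled in the data, and for the same reason no library could be left out. The depth behind a score is unknown, and a difference of 1 step of 1.23 is the finest the scores can show.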
